A study of Mus musculus with 4 samples.

Results

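The genes followed here are 40 antioxidant, glutathione and NADPH genes of the mouse, many of them known targets of the transcription factor NRF2. They were taken by symbol from a list drawn up by function, and all 40 were found among the 44788 genes of the deposited count table. The list was chosen with earlier results of these data known. RNA sequencing was done on bone marrow stromal cells of Setd2 fl/fl mice (strain C57BL/6J), in which loxP sites flank part of the gene of the H3K36 methyltransferase SETD2. The control group was given a GFP lentivirus and the knockout group a Cre recombinase lentivirus. All cells were at passage 2 and all were kept in puromycin at 2 µg/ml for 4 days. Each group had 2 libraries, and no source used here says whether these came from separate animals or cultures, so the p-values describe the spread between libraries only, which may be technical. Both groups carry the floxed allele and a virus, and only 1 of them carries Cre, so deletion of Setd2 and the presence of Cre cannot be told apart.

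Library totals ran from 12371994 to 14315903 counts. Counts of Setd2 were 1400 and 1250 with GFP against 551 and 468 with Cre (log2 fold change -1.60, SE 0.08, adjusted p = 3.65e-15 in edgeR's quasi-likelihood test), so each library matched its label. The 18S ribosomal RNA gene Rn18s-rs5 held 7.45% of the counts of GFP replicate 2 and between 1.21% and 2.07% in the other libraries. Summed over the 11 stromal markers, the level was between 15240 and 20280 CPM (counts scaled to a common library size, with TMM factors). Col1a1 and Col1a2 made up most of this sum (means of 8398 and 7899 CPM). Pdgfrb averaged 381 CPM, while Thy1 (9.77 CPM), Nt5e (9.13 CPM) and Lepr (4.13 CPM) were low. Macrophage transcripts were also present, with marker means from 6.34 CPM (Fcgr1) to 1545 CPM (Lyz2). Hemoglobin genes (Hba-a1, Hba-a2, Hbb-bs and Hbb-bt) had 0 counts in every library, which allows at most 0.255 CPM for counting error alone. These are pairs of near-identical genes, and how multiple matches were counted is not given, so a count of 0 may not mean absence. Alas2, a heme synthesis gene of red cell precursors, had 6 and 8 counts with GFP and 3 and 3 with Cre. Red cell precursors are known to express Prdx2, Gpx1 and Cat strongly.

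NRF2, encoded by Nfe2l2, is held in the cytoplasm and marked for degradation by KEAP1 while cells are unstressed. Oxidants and electrophiles modify KEAP1, NRF2 then enters the nucleus, pairs with small MAF proteins and binds antioxidant response elements near genes of glutathione synthesis, thioredoxin recycling, quinone and heme breakdown and NADPH production. Glutathione is made from cysteine, glutamate and glycine, serves peroxidases and transferases, and is kept reduced with NADPH from the pentose phosphate pathway and malic enzyme. In bone marrow stroma these systems are known to protect progenitors and to influence their differentiation.

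The antioxidant response element has the core TGACNNNGC, and the variant TGAGNNNGC is also bound. RefSeq promoter windows on GRCm38.p6, each from 250 bases before to 50 bases after a transcription start, were found for 33 of the 40 genes (not for Abcc1, Gclc, Gsr, Gsta4, Hmox1, Prdx6 and Sod3). Both strands were searched, and the motifs cannot match the same bases on the same strand. At least 1 window held TGACNNNGC in 11 of the 33 genes (33.3%), against 14% of 27025 genes with a window. TGAGNNNGC was present in 7 of the 33 genes (21.2%), against 19.8% of all. A match is a run of letters and not a measured binding site. The windows of 3 genes are printed because they belong to genes whose RNA differed between the groups: G6pdx (chrX:74428831-74429130, minus strand), Slc7a11 (chr3:50443564-50443863, minus strand) and Gpx1 (chr9:108338830-108339129, plus strand). They are written 5′ to 3′ along the gene, with matches to either motif in capitals.
G6pdx: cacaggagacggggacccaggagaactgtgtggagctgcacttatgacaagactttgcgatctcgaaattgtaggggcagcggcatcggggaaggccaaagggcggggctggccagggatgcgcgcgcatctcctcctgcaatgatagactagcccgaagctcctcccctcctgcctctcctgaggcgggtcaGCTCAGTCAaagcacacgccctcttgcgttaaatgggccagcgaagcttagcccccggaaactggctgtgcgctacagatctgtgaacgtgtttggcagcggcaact
Slc7a11: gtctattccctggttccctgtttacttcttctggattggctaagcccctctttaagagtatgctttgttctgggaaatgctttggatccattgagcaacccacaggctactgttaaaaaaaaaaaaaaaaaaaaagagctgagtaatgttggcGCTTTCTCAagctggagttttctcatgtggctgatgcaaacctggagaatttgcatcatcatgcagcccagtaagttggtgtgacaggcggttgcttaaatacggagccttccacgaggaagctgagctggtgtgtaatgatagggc
Gpx1: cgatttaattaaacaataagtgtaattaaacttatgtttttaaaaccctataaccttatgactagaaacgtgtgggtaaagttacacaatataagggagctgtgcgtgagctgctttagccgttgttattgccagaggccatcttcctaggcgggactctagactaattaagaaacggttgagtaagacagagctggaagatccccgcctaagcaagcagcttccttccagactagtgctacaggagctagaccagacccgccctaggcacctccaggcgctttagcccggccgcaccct

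G6pdx held TGACNNNGC on the opposite strand, from base -57 to base -49 counted from the start. Slc7a11 held only the TGAG variant, from base -97 to base -89 on the opposite strand, and the Gpx1 window held neither motif. Neither motif was found in the windows of Gss, Gstm1, Txn1 and Prdx2, the other genes called in the comparison of groups. Matches with up to 16 bases on each side are printed next for the NRF2 gene itself and for 5 classical targets, since these genes did not pass the test. They were picked for having a TGACNNNGC match, and the window of Nqo1 held neither motif. Capitals again mark the match, which reads TGACNNNGC in Nfe2l2 (chr2:75704879-75704913) and Me1 (chr9:86695896-86695936). It reads as the reverse complement in Prdx1 (chr4:116685450-116685490), Txnrd1 (chr10:82859098-82859138), Gclm (chr3:122245407-122245447) and Srxn1 (chr2:152105536-152105573).
Nfe2l2: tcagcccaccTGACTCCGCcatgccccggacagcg
Prdx1: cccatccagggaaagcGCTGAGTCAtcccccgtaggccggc
Me1: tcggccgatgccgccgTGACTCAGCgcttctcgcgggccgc
Txnrd1: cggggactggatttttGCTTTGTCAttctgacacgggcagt
Gclm: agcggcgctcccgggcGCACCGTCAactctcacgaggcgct
Srxn1: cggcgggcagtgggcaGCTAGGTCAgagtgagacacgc

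The comparison asks how these genes differ between cells given the Cre lentivirus and cells given the GFP lentivirus. In the Cre libraries 6 genes rose and 1 fell. The glutathione peroxidase gene Gpx1, the transferase gene Gstm1, glucose-6-phosphate dehydrogenase (G6pdx), thioredoxin (Txn1), peroxiredoxin 2 (Prdx2) and glutathione synthetase (Gss) were between 1.17-fold and 1.29-fold as high with Cre as with GFP. The cystine transporter gene Slc7a11 stood at 0.761-fold. Nfe2l2, Keap1 and the classical targets Nqo1, Hmox1, Gclc, Gclm, Txnrd1 and Srxn1 did not pass. The plot of log2 fold changes shows the 40 genes by role.

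**Figure D1:**
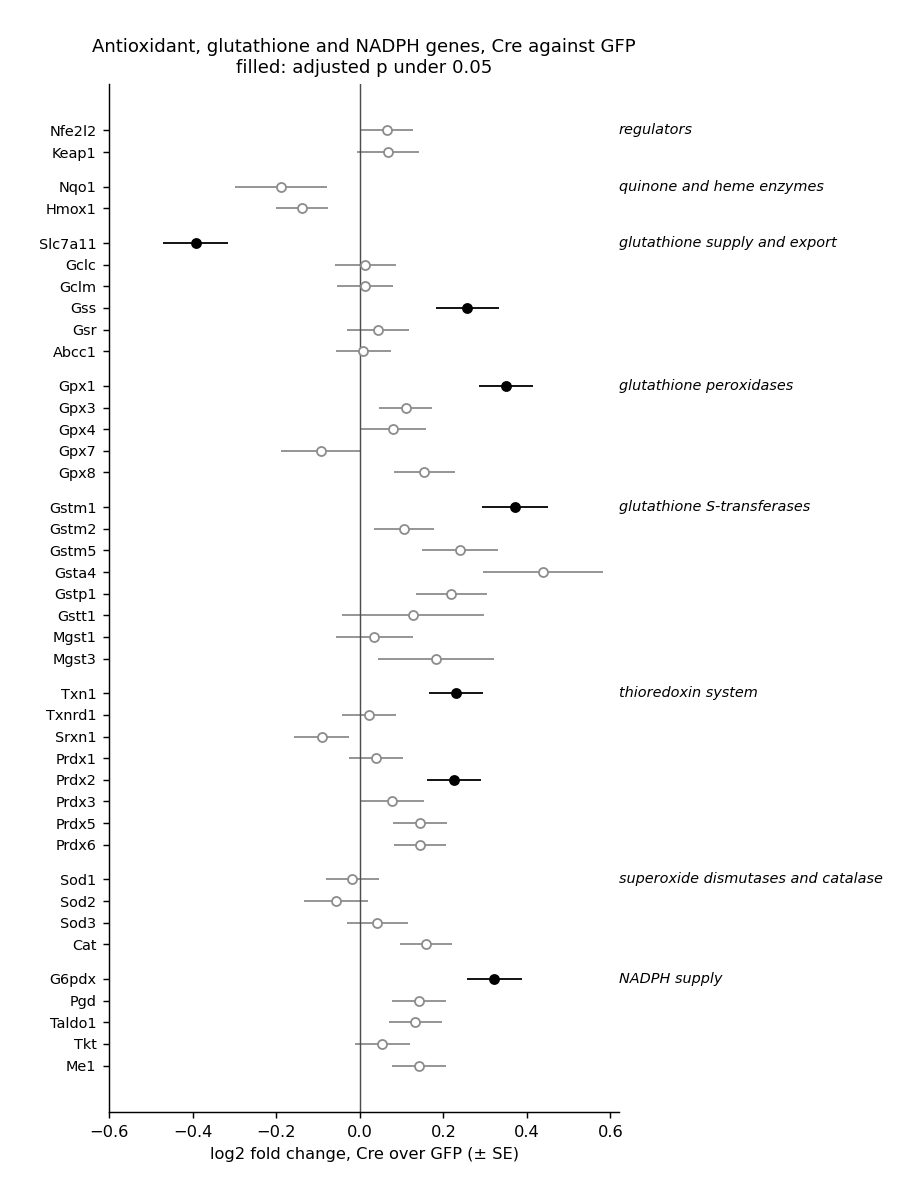
Log2 fold change of Cre over GFP with its standard error (horizontal axis) for each of the 40 genes, grouped by role, with filled points for an adjusted p under 0.05. Of the 7 filled points, Slc7a11 lies left of 0 and Gpx1, Gstm1, G6pdx, Txn1, Prdx2 and Gss lie right of it, while Gsta4, at 0.44, has the highest value and an open point.

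All 40 genes passed the filter on low counts, which used a minimum count of 10. The lowest of the 40, Gstt1, had 58 to 89 counts per library. Small differences are easier to call at higher counts, and the shares of all genes were not matched for count level. The 6 rises made up 15% of the 40 genes, beside 3.74% of the 14483 genes tested. The 1 fall made up 2.5%, beside 3.22%. At an unadjusted p under 0.05 in edgeR, 16 genes were higher (40%, beside 10.6% of all genes) and 2 were lower (5%, beside 10.4%). Both Cre libraries lay above both GFP libraries in 21 genes (52.5%, beside 24.5% of all genes) and below both in 4 genes (10%, beside 25.5%). The other 15 overlapped. The median log2 fold change of the 40 genes was 0.09, and that of all tested genes was -0.00447. The summed level of the 40 genes was 5874 and 5877 CPM with GFP and 6072 and 6258 CPM with Cre. Because the 40 genes were chosen with earlier results of these data known, these shares describe the list and are no independent test.

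Leaving out a library leaves a group of 1, whose spread is then taken from the other group. A lost call in such a fit therefore says little about the library left out. The counts at an unadjusted p given next stand without those of all genes, so no excess is read from them. Without GFP replicate 2 no gene of the table passed, Setd2 included (0% called), and 11 of the 40 genes were higher and 2 lower at an unadjusted p under 0.05 in edgeR. Without GFP replicate 1, 0.0803% of all genes were called and none of the 40, with 9 higher and 2 lower at that unadjusted p. Without Cre replicate 1 Gpx1, Gstm1 and Slc7a11 passed (3.51% of all genes called), with 11 higher and 1 lower at that unadjusted p. Without Cre replicate 2 G6pdx and Gstm1 passed (2.53%), and the unadjusted counts were lowest, at 6 higher and 1 lower. The median log2 fold change of the 40 genes was 0.15 without Cre replicate 1 and 0.07 without Cre replicate 2. For all genes tested in these fits it was -0.00187 and -0.000965. Without GFP replicate 1 the median of the 40 genes was 0.0987, beside 0.00223 for all genes. Without GFP replicate 2 it was 0.091, beside -0.00684.

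The calls differed between fits to all 4 libraries. Without a low-count filter none of the 40 genes passed in edgeR (0.118% of all genes called). At an unadjusted p under 0.05 in that edgeR fit, 15 of the 40 were higher and 2 lower. Of all 25476 genes in it, 1532 were higher and 1230 lower at that p. DESeq2 called 6 of the 7, all but Gss (4.16% of all genes with an adjusted p), and with scaling by library size alone Gpx1, Gstm1, G6pdx and Slc7a11 passed (3.66%). With each library's trend in GC content and transcript length removed, 9 genes rose and 2 fell (9.36% of all genes called). In that fit Gss missed (adjusted p = 0.0503), and Cat, Gpx8, Me1 and Prdx6 (higher) and Hmox1 (lower) passed in addition.

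**Figure D2:**
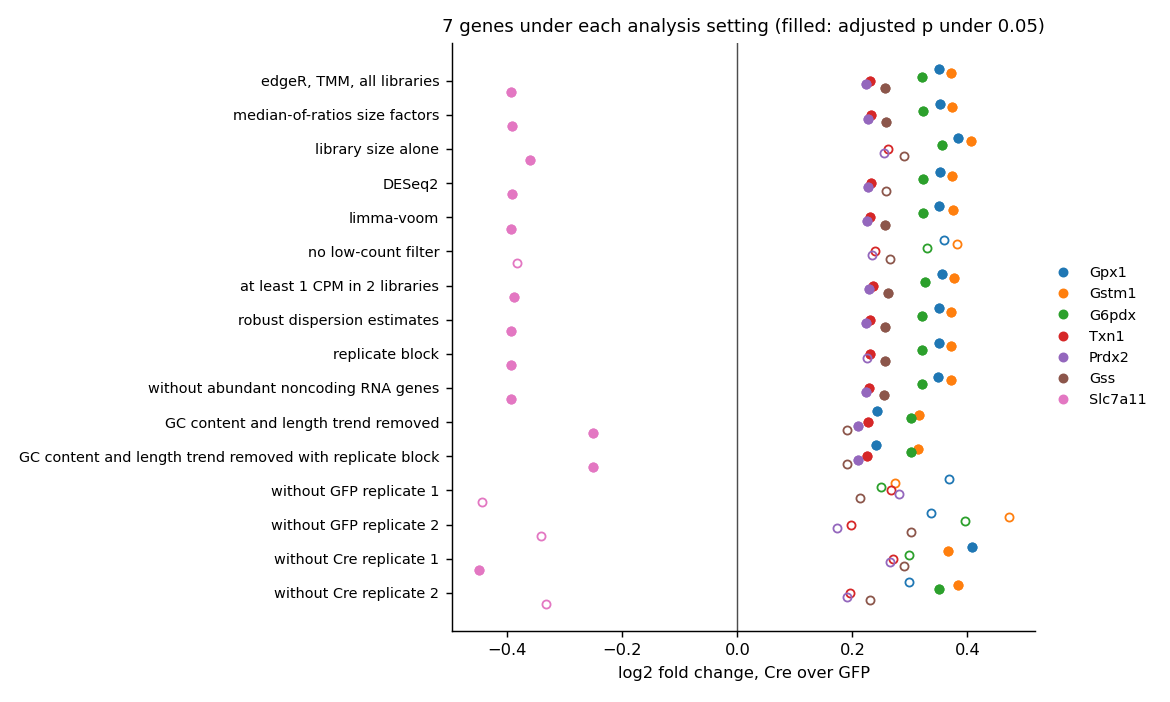
Log2 fold change of Cre over GFP (horizontal axis) of the 7 called genes under each analysis setting (vertical axis), filled where the adjusted p is under 0.05. Every point of Slc7a11 lies below 0 and every point of the other 6 genes above 0, and all points are open without a low-count filter, without GFP replicate 1 and without GFP replicate 2.

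The regulators differed little between the groups. Nfe2l2 (chr2:75675513-75704641) had 159 and 164 CPM in the GFP libraries and 169 and 169 CPM in the Cre libraries. Its log2 fold change was 0.06, with a 95% interval from -0.06 to 0.19 (adjusted p = 0.608). Keap1, the adaptor that hands NRF2 to a ubiquitin ligase, had 50.5 and 49.8 CPM with GFP and 51.7 and 53.4 CPM with Cre, with an interval from -0.08 to 0.22 (adjusted p = 0.664). In both genes the Cre libraries lay above the GFP libraries but the tests were not passed. The sign for Keap1 turned when the trend in GC content and length was removed (-0.01). RNA levels do not measure NRF2 protein, which is controlled mainly by its stability.

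The quinone reductase gene Nqo1 and the heme oxygenase gene Hmox1, the targets most used as readouts of NRF2, were lower in both Cre libraries but did not pass. Nqo1 had 17.4 and 16.9 CPM with GFP and 15.2 and 14.9 CPM with Cre (log2 fold change -0.19, SE 0.11, adjusted p = 0.341). Hmox1 (chr8:75093621-75100589) had 790 and 771 CPM with GFP and 703 and 714 CPM with Cre (log2 fold change -0.14, SE 0.06, adjusted p = 0.188). For Hmox1 the groups did not overlap, and its adjusted p was 0.00592 once the trend in GC content and length had been removed, with a log2 fold change of -0.19. Per kilobase of transcript Hmox1 was the most abundant of the 40 genes in these cultures.

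Genes of glutathione supply went both ways. Slc7a11 encodes the transporter subunit that brings in cystine, the source of cysteine for glutathione, and lies on chr3:49892526-50443614 (minus strand). Counts were 711 and 682 with GFP against 643 and 591 with Cre, which is 54.1 and 58.1 CPM against 44.5 and 40.8 CPM. Both Cre libraries were lower than both GFP libraries, and the log2 fold change was -0.39 (SE 0.08, adjusted p = 0.00145). It was -0.25 after removal of the trend in GC content and length, where the gene still passed. Leaving out each library in turn gave values from -0.45 to -0.33. Tubulin genes match part of the Slc7a11 transcript, Tuba1b 10.4% at 93.9% identity and Tuba1a 9.27% at 94.5%. Without TMM factors they averaged 157 and 812 CPM, above Slc7a11 (49.4 CPM with the factors). How reads with multiple matches were counted is not given, and their part in the Slc7a11 counts was not tested.

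Gss, which adds glycine in the last step of glutathione synthesis, rose from 45.4 and 48.2 CPM with GFP to 54.8 and 56.9 CPM with Cre (log2 fold change 0.26, SE 0.08, adjusted p = 0.0337). The groups did not overlap, but the call held in 6 of 15 alternatives. All 6 used the 4 libraries, and 4 of the other alternatives leave out a library. Of its exon bases in GENCODE M21, 15.4% lie over other genes on the opposite strand. One of these, the acetyl-CoA synthetase gene Acss2, was at 4.64 and 5.02 CPM with GFP and 6.51 and 7.33 CPM with Cre, far below Gss. The kit does not mark strand, so reads of overlapping genes cannot be separated.

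The enzyme that limits glutathione synthesis showed no resolved difference. Its catalytic subunit gene Gclc had 63.1 and 59.5 CPM with GFP and 64.2 and 59.7 CPM with Cre (95% interval of the log2 fold change from -0.14 to 0.16). The modifier subunit gene Gclm had 83.6 and 83.9 CPM with GFP and 84.3 and 84.7 CPM with Cre (interval from -0.12 to 0.15). Both intervals include 0, with adjusted p-values of 0.948 for Gclc and 0.945 for Gclm. Gsr, which returns oxidized glutathione to its reduced form, was at 0.04 on the log2 scale, and Abcc1, an exporter of glutathione and its conjugates, was at 0.01.

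Of the 5 glutathione peroxidase genes, 1 rose (20%, beside 3.74% of all genes tested). Gpx1, the abundant peroxidase of cytosol and mitochondria (chr9:108338903-108340343), had 184 and 180 CPM with GFP and 224 and 241 CPM with Cre. Its log2 fold change of 0.35 (SE 0.06) had the smallest adjusted p of the 40 genes, 0.000623, and the gap between the groups was wider than the gap within either. It was 0.24 with the trend in GC content and length removed and from 0.30 to 0.41 with each library left out in turn. The secreted peroxidase gene Gpx3 (0.11) and Gpx8 of the endoplasmic reticulum (0.15) did not pass. Gpx4, which reduces lipid hydroperoxides and guards against ferroptosis, was at 0.08 (adjusted p = 0.623), and Gpx7 was at -0.09. The Gpx4 value turned to -0.05 with the trend removed, and its count is uncertain because a pseudogene, Gpx4-ps2, matches 79.5% of its transcript at 99.7% identity.

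All 8 glutathione S-transferase genes followed here had log2 fold changes above 0, from 0.03 to 0.44, and 1 of them passed. The family as a whole went both ways. Of the tested Gst and Mgst genes in the wider list described below, Gstk1 (0.60), Gsta3 (0.43), Gstt2 (0.15) and Gstm4 (0.11) lay above 0. Mgst2 (-0.85), Gsto2 (-0.66), Gstt3 (-0.28), Gsto1 (-0.12), Gstz1 (-0.08) and Gstm7 (-0.05) lay below 0. Of all 14483 genes tested, 7081 had a value above 0. These enzymes join glutathione to electrophiles. Gstm1 (chr3:108012255-108017973) had 41.3 and 47.3 CPM with GFP and 57.7 and 56.8 CPM with Cre (log2 fold change 0.37, SE 0.08, adjusted p = 0.00277). The Cre libraries lay close together and above both GFP libraries, which differed from each other by 0.20 on the log2 scale. The value was 0.47 without GFP replicate 2 and 0.27 without GFP replicate 1. A pseudogene, Gstm2-ps1, matches 51.0% of the Gstm1 transcript at 97.9% identity and had 1.75 and 2.21 CPM with GFP and 3.18 and 3.94 CPM with Cre.

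Gsta4, whose enzyme clears the lipid aldehyde 4-hydroxynonenal, was measured at a low level and did not pass. It had 93 and 96 counts with GFP and 139 and 159 counts with Cre, with a log2 fold change of 0.44 (SE 0.14, adjusted p = 0.0623). It passed in 3 of 15 alternatives. Gstm5 (0.24), Gstp1 (0.22), Mgst3 (0.18), Gstt1 (0.13), Gstm2 (0.11) and Mgst1 (0.03) did not pass, and groups overlapped in Gstt1 and Mgst1. Summed over the 8 transferases the level was 212 and 217 CPM with GFP and 241 and 255 CPM with Cre. Gstp1 counts are uncertain because Gstp2 matches 86.1% of its transcript at 98.2% identity, and 13.9% of Gstm5 exon bases lie under an antisense gene.

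**Figure D3:**
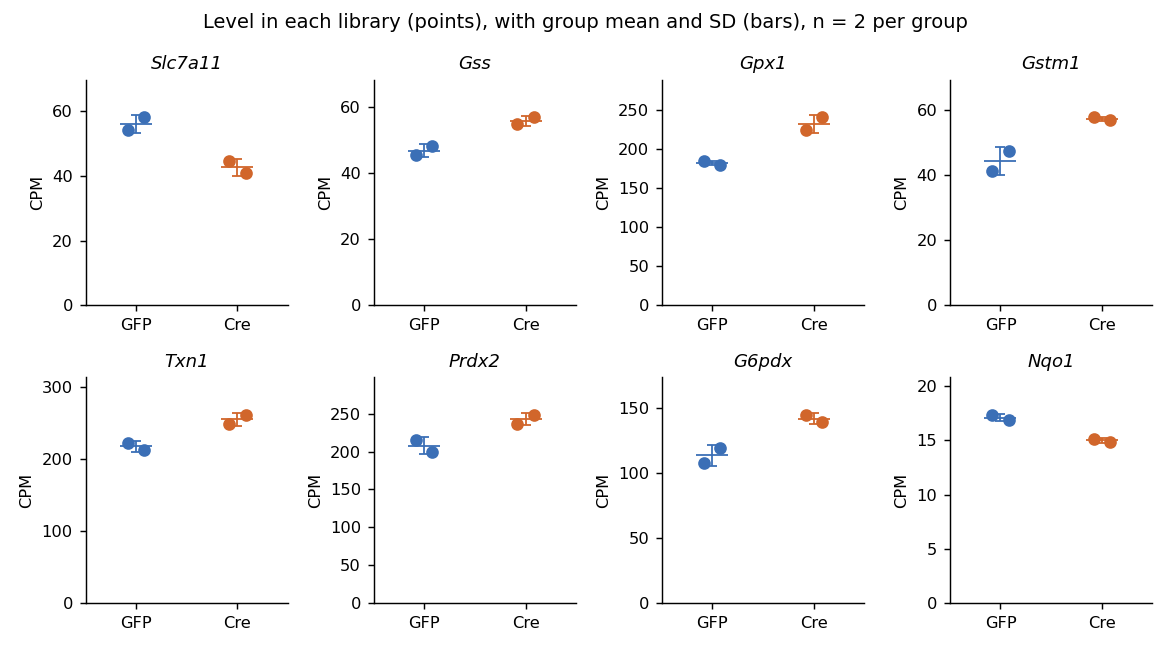
Level in CPM (vertical axes, from 0) of the 7 called genes and of Nqo1 in each library, with the mean and SD of each group (n = 2). The Cre points of Slc7a11 and Nqo1 lie below their GFP points, as in Slc7a11 with 44.5 and 40.8 against 54.1 and 58.1 CPM, and those of the other 6 genes lie above.

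In the thioredoxin system, 2 of 8 genes rose (25%, beside 3.74% of all genes tested). Thioredoxin, which reduces disulfides in peroxiredoxins and other proteins, is encoded by Txn1 (chr4:57943373-57956411). Its level was 222 and 212 CPM with GFP and 249 and 261 CPM with Cre (log2 fold change 0.23, SE 0.06, adjusted p = 0.0242). Prdx2, a cytosolic peroxidase fed by thioredoxin, had 215 and 200 CPM with GFP and 237 and 248 CPM with Cre (0.22, SE 0.06, adjusted p = 0.0305). Neither gene overlapped between the groups. With each library left out in turn the values ran from 0.20 to 0.27 for Txn1 and from 0.17 to 0.28 for Prdx2, and neither gene passed in those fits, each of which has a group of 1. Exons of Junb and Rnaseh2a on the opposite strand cover 11.5% of Prdx2 exon bases, and their own log2 fold changes were 0.05 and 0.01.

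Txnrd1, the selenoenzyme that reduces thioredoxin, had 326 and 360 CPM with GFP and 348 and 348 CPM with Cre. The Cre values lay between the GFP values, and the 95% interval of the log2 fold change ran from -0.11 to 0.15. Srxn1, which repairs overoxidized peroxiredoxins, had 140 and 157 CPM with GFP and 137 and 141 CPM with Cre (-0.09 on the log2 scale, adjusted p = 0.467), with overlapping groups. Among the other peroxiredoxins, Prdx5 and Prdx6 stood at 0.14 each, mitochondrial Prdx3 at 0.08 and Prdx1 at 0.04, and none passed. Prdx5 stood at 0.03 with the trend in GC content and length removed, while Prdx6 then passed (0.16, adjusted p = 0.0249).

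The superoxide dismutase genes showed no resolved difference. Cytosolic Sod1 stood at -0.02, mitochondrial Sod2 at -0.06 and extracellular Sod3 at 0.04 on the log2 scale, with adjusted p-values of 0.914 for Sod1, 0.728 for Sod2 and 0.797 for Sod3. Their signs turned in at least 1 alternative each. The pseudogene Gm8566 matches 72.5% of the Sod1 transcript at 97.8% identity, which leaves its count uncertain. Catalase (Cat), which breaks down hydrogen peroxide in peroxisomes, had 165 and 163 CPM with GFP and 183 and 183 CPM with Cre. Its groups did not overlap and replicates were close, but the log2 fold change of 0.16 (SE 0.06) had an adjusted p of 0.128.

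All 5 genes of NADPH supply had log2 fold changes above 0 (7081 of 14483 in all genes tested), and G6pdx passed. G6pdx encodes the enzyme that commits glucose to the pentose phosphate pathway and lies on chrX:74409483-74429194. It had 1418 and 1401 counts with GFP and 2091 and 2011 counts with Cre, which is 108 and 119 CPM against 145 and 139 CPM (log2 fold change 0.32, SE 0.07, adjusted p = 0.00206). Both Cre libraries lay above both GFP libraries, which were 0.14 apart on the log2 scale. With each library left out in turn the value ran from 0.25 to 0.40. Exons of Ikbkg on the opposite strand cover 13.6% of G6pdx exon bases, and Ikbkg itself had 118 and 119 CPM with GFP and 116 and 118 CPM with Cre (log2 fold change -0.02). The intronless copy G6pd2 matches 87.5% of the transcript at 93.2% identity and had at most 1 count per library.

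The other NADPH genes did not pass. Pgd, which makes the second NADPH of the pathway, had 249 and 272 CPM with GFP and 282 and 292 CPM with Cre (0.14 on the log2 scale, adjusted p = 0.203). Taldo1 and Tkt, which carry out the rearrangements of sugar phosphates, stood at 0.13 and 0.05, and Me1, the cytosolic malic enzyme, at 0.14 (adjusted p = 0.197). None of these 4 passed, and in Pgd, Taldo1 and Me1 both Cre libraries lay above both GFP libraries. Me1 passed with the trend in GC content and length removed (0.18, adjusted p = 0.0138). Its pseudogene Gm7049, which matches 52.1% of the transcript at 98.4% identity, had 4.95 and 8.43 CPM with GFP and 3.60 and 2.97 CPM with Cre.

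A wider list of 110 further genes of the same systems held 94 tested genes, of which 6 rose (6.38%, beside 3.74% of all genes) and 1 fell (1.06%, beside 3.22%), with a median log2 fold change of -0.00515. The iron exporter ferroportin (Slc40a1), a known NRF2 target, rose from 32.2 and 28.8 CPM to 52.3 and 47.2 CPM (log2 fold change 0.70, SE 0.09, adjusted p = 1.28e-06). Oplah, which returns 5-oxoproline to glutamate in the glutathione cycle, rose by 0.90 on the log2 scale from 77 and 62 counts to 137 and 164 counts. The other rises were those of the biliverdin reductase gene Blvrb (0.38), the peroxiredoxin gene Prdx4 (0.26), the mitochondrial and peroxisomal transferase gene Gstk1 (0.60) and the aldo-keto reductase gene Akr1a1 (0.20). The glutamine transporter gene Slc1a5 fell from 34.9 and 37.6 CPM to 27.8 and 28.8 CPM (-0.36, SE 0.09, adjusted p = 0.00849). The groups did not overlap in any of these 7 genes, which were picked by the test on the same libraries. Of the 94 tested genes, both Cre libraries lay above both GFP libraries in 26 (27.7%, beside 24.5% of all genes). They lay below both in 26 (27.7%, beside 25.5%). The wider list was also chosen with earlier results of these data known.

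Levels between genes were compared as CPM per kilobase of the principal transcript. Hmox1 (475), Prdx1 (363), Txn1 (225), Gpx1 (194) and Sod1 (178) were the most abundant on this scale, as means over the 4 libraries. Slc7a11 (5.35), Gstt1 (5.58), Mgst3 (8.45), Gsta4 (9.18) and Sod2 (9.70) were the least abundant. Ranges over the 4 libraries overlapped in 27 of the 39 pairs of neighbours in this order, so that most neighbouring ranks do not differ beyond their spread. Hmox1 and Prdx1, and Prdx1 and Txn1, did not overlap. Nfe2l2 stood at 66.7 and Keap1 at 14.2. These values depend on which transcript is taken as the principal one.

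**Figure D4:**
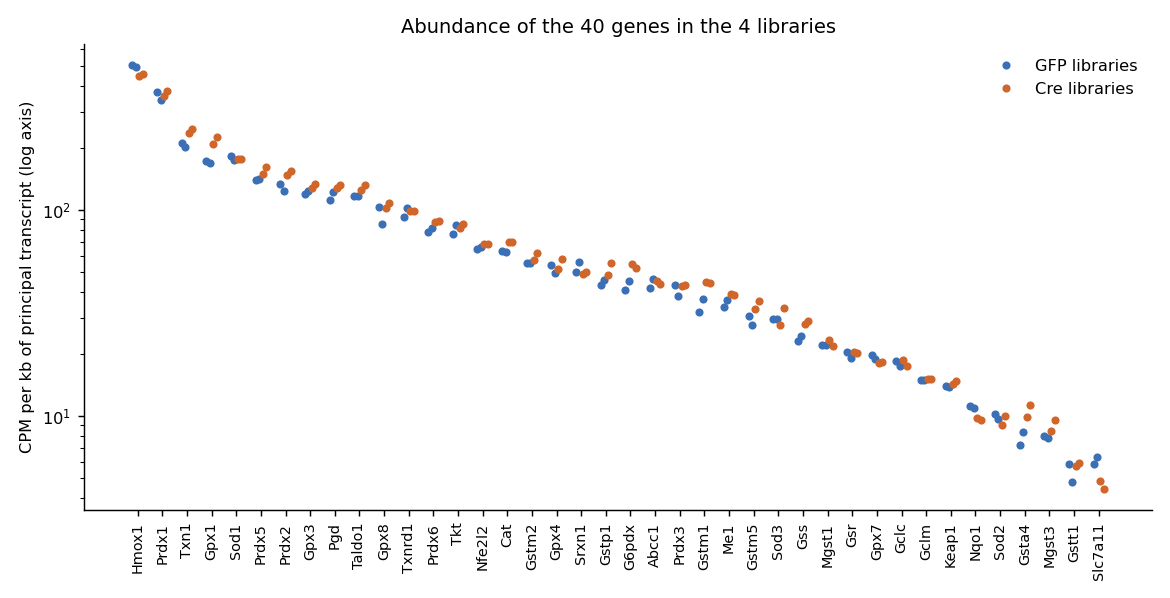
Level of each of the 40 genes in the 4 libraries, in CPM per kilobase of the principal transcript on a log axis, ordered by the mean. Values run from Hmox1 (mean 475) to Slc7a11 (mean 5.35), and the offset between GFP and Cre points of 1 gene is small beside the differences between genes.

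Macrophage markers also differed between the groups. Of 11 markers tested, Cd68 (0.30), Lyz2 (0.27), Mrc1 (0.42) and Tyrobp (0.25) rose (36.4%, beside 3.74% of all genes). Emr1 (-0.30) fell (9.09%, beside 3.22%), and 6 did not pass. The summed level of the 11 markers was 2029 and 2090 CPM with GFP and 2390 and 2380 CPM with Cre. Lyz2 alone gave 1388 and 1409 CPM of it with GFP and 1685 and 1697 CPM with Cre. Of the 11 stromal markers, Col1a1 (0.52), Col1a2 (0.29), Thy1 (0.61) and Ly6a (0.52) rose (36.4%). Cxcl12 (-0.28) fell (9.09%), and 6 did not pass. In these bulk samples more cells of a type and more RNA per cell cannot be told apart, and the part of macrophage RNA in the rises of Gpx1, G6pdx, Gstm1, Txn1, Prdx2 and Gss was not tested. Summed levels of erythroid, endothelial, neutrophil, lymphoid and adipocyte markers stayed at or under 17.4 CPM in every library, and of their 8 tested markers Cd4 (0.75) passed, while the T cell gene Cd3e and the B cell gene Ms4a1 were at 0 in every library.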

How the data were processed

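The authors deposited whole-number read counts per gene for 4 libraries, with no normalization, per the file headers. The submitters' processing notes name HISAT2 and the GRCm38 build. How reads were assigned to genes (program, annotation, strand, multiple matches) is not given in the sources used here. Per the labels, the kit was Illumina TruSeq RNA, which does not mark strand, and Trizol-extracted RNA was the input. Library totals were 12371994 to 14315903 counts, and a count of 0 allows up to 3 counts (0.207 to 0.255 CPM), which covers counting error alone because the reads hold no molecular identifiers.

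Genes were kept with filterByExpr (minimum count 10, minimum total count 15), scaled by TMM and tested with edgeR 4.0.16 in R 4.3.3 (quasi-likelihood F-test, group as the only term, Benjamini-Hochberg adjustment over the 14483 genes tested, threshold 0.05). Standard errors and 95% intervals come from the F statistic and its degrees of freedom. Fits with DESeq2 1.42.0, limma 3.58.1, other scalings and filters, a replicate block, GC content and length trends (a smooth fit with mgcv 1.9.3 per library, for the 95.5% of tested genes with GENCODE M21 values), no abundant noncoding RNA genes and without each library were alternatives. The test was checked on simulated counts.

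All 40 genes are named, and of the wider list those past the threshold with at least 1 CPM on average and the tested Gst and Mgst genes. The members, lists and alternatives were chosen with earlier results of these data known. Of the 40 genes, 7 share at least 1% of their exon bases with another gene, and 8 have a transcript of another gene with at least 90% identity over at least 50% of their length. Their counts are uncertain. These are G6pdx, Gclm, Gss, Gstm5, Keap1, Prdx2 and Prdx5, and G6pdx, Gpx4, Gstm1, Gstp1, Me1, Prdx6, Sod1 and Taldo1.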

Additional observations from a re-analysis of the deposited data

How the results depend on the processing

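The 7 calls kept their direction under all 15 alternatives. Without a low-count filter, 18 of all genes rose and 12 fell, and 0 of the 40 and 0 of the wider list passed in either direction (edgeR). With scaling by library size alone, 347 rose and 183 fell, with 3 rises among the 40 and 0 falls in the wider list. DESeq2 gave 244 rises and 137 falls, with 2 rises and 0 falls in the wider list. At an adjusted p of 0.01, 257 rose and 220 fell, with 3 rises among the 40 and 2 in the wider list. With the trend in GC content and length removed, 770 of all genes rose and 585 fell, and falls numbered 2 among the 40 and 4 in the wider list. Leaving out 1 library, which leaves a group of 1 assumed to vary like the other, gave 0 to 257 rises and 0 to 259 falls over all genes, 0 to 2 and 0 to 1 among the 40, and 0 to 3 and 0 to 1 in the wider list. The cause was not tested.

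Libraries with the same replicate number did not deviate together (correlation -0.00886), so the numbers are not taken to pair them. With the number as a replicate block 5 of the 40 genes rose and 1 fell, Prdx2 being lost (adjusted p = 0.0567), and 441 of all genes rose and 388 fell. Block and trend removal together gave 801 rises and 626 falls over all genes, 10 rises and 2 falls among the 40 and 4 falls in the wider list.

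Signs turned in 13 genes, none of them called. With the trend removed, log2 fold changes were -0.00571 (Keap1), -0.0495 (Gpx4) and 0.0416 (Sod2), and with the block in addition -0.00465, -0.0494 and 0.0397. Sod1 was at 0.0135 with library size alone. Leaving out 1 library gave -0.0325 to 0.0646 for Gclc, -0.0479 to 0.0962 for Txnrd1, -0.0284 to 0.11 for Prdx1, -0.00754 to 0.177 for Prdx3, -0.00515 to 0.167 for Gpx4 and -0.00713 to 0.293 for Gstt1. It gave -0.00586 to 0.0807 for Mgst1, -0.0450 to 0.0122 for Sod1, -0.133 to 0.0220 for Sod2, -0.0991 to 0.177 for Sod3, -0.0210 to 0.134 for Tkt and -0.0621 to 0.0842 for Abcc1.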
